A study of Rattus norvegicus with 16 samples.

Results

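Keratins are the intermediate filament proteins of epithelial cells, and they assemble only as pairs of an acidic type I and a basic type II chain. In the epidermis, dividing basal cells make Krt5 and Krt14, and cells that leave the basal layer switch to Krt1 and Krt10. Krt17 and the keratin 6 genes are made in the outer root sheath of hair follicles and are induced in injured epidermis. The inner root sheath, which moulds the growing hair, has keratins of its own, and the hair shaft is built from hair keratins embedded in keratin-associated proteins, which are rich in cysteine or in glycine and tyrosine. Follicles cycle between growth, regression and rest, and the genes of the inner root sheath and hair shaft are transcribed mainly during growth.

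The genes described here are those with a symbol of Krt followed by a digit or starting with Krtap, except Krt8, Krt18 and Krt20. There were 26 of them, 22 Krt and 4 Krtap genes, among 14217 genes measured. The RefSeq annotation of rat assembly GRCr8 lists 130 genes by the same rule, 69 of them Krtap genes, so 20% of the family was measured and most keratin-associated proteins were not. The 26 genes lie on chromosomes 10 (14 genes), 7 (10 genes) and 11 (2 genes). By textbook site of expression they were grouped as basal (Krt5, Krt14 and Krt15), suprabasal (Krt1, Krt10, Krt24, Krt78 and Krt79), stress (Krt17 and Krt6c), inner root sheath (Krt25 and Krt71) and hair shaft (Krt33b, Krt36, Krt86, Krtap1-1, Krtap1-5, Krtap13-2l1 and Krtap14l). The other 7 were Krt4, Krt7, Krt12, Krt13, Krt19, Krt23 and Krt90.

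The samples were dorsal hairy skin of adult female Sprague-Dawley rats, 1 array each. Naïve skin came from 6 rats with no treatment or surgery, and denervated skin from 5 rats each at 7 and at 14 days after the dorsal and lateral cutaneous nerves to the sampled skin were cut and ligated. The nerves of the neighbouring strip of skin were spared and the incision was made on the other side of the back, so the denervated groups differ from naïve rats by surgery and anaesthesia as well as by nerve loss. Each piece can hold some of the cutaneous trunci muscle under the skin, a muscle with another nerve supply that was not denervated. In such bulk samples, fewer cells of a type and less RNA per cell cannot be told apart.

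Values are log2 expression from robust multi-array averaging (RMA), so a difference of 1 is a fold of 2. Levels of different genes come from different probes and are not set against each other. The lowest 10% of gene means lay below 4.59, and the highest gene value on an array was 13.85 to 14.15. Krtap13-2l1 and Krt12 lay near the low end, and Krt25, Krt71, Krt33b, Krt86 and Krtap1-5 reached the top of the scale, where signal is compressed, so for these 7 genes the test and the arrays are given but no size of change. A gene is called higher or lower where limma, fitted to all 14217 genes and 16 arrays, gave a Benjamini-Hochberg adjusted p under 0.05. An exact two-sided permutation test over arrays stands beside it, and the smallest p it can give is 0.00216 for a comparison with naïve skin and 0.00794 for one between the times.

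The naïve arrays divided. Naïve replicates 1 and 2 held both inner root sheath genes and 5 of the 7 hair shaft genes at levels close to those of skin at 14 days, and naïve replicates 3 to 6 held them far lower. The exceptions were Krtap14l, which differed little between these arrays, and Krtap13-2l1, which did not divide them. The lowest correlation between arrays of a group, across genes, was 0.912 in naïve skin, 0.972 at 7 days and 0.993 at 14 days. Some other measures ran along the same division, and others did not. The score of 19 skeletal muscle genes, for which every gene was centred on its own mean of the 16 arrays and the genes were then averaged, was 0.80 to 1.14 on naïve replicates 3 to 6 and -0.00151 and -0.79 on replicates 1 and 2. It was -0.77 to 0.61 at 7 days and -0.88 to -0.33 at 14 days. The 3′ signal of beta-actin minus its middle signal is a measure of RNA integrity and labelling. It was 0.519 to 1.20 on naïve replicates 3 to 6 and 0.176 and 0.228 on replicates 1 and 2. At 7 days it was 0.202 to 0.290, and at 14 days 0.0452 to 0.276. The 3′ minus 5′ signal of beta-actin overlapped, at 0.142 to 0.645 on naïve replicates 3 to 6 and 0.614 and 0.690 on replicates 1 and 2. That of Gapdh overlapped too, at 0.293 to 0.338 and at 0.322 and 0.290. The part of muscle content and RNA quality in the keratin differences was not tested beyond the alternatives given with each count.

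**Figure D1:**
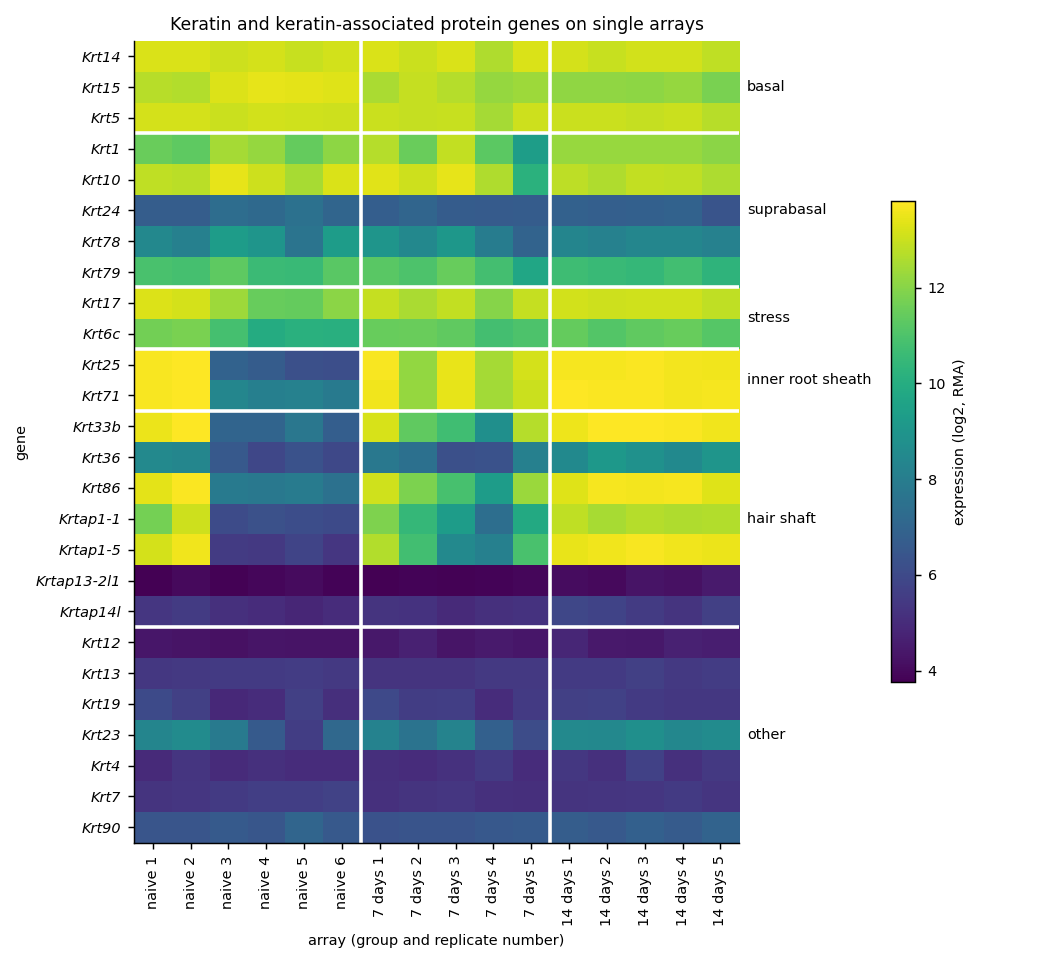
Log2 expression (RMA) of the 26 keratin and keratin-associated protein genes (rows, grouped by site of expression) on the 16 arrays (columns, group and replicate number). Krt25, Krt71, Krt33b, Krt86, Krtap1-1 and Krtap1-5 are bright on naïve replicates 1 and 2 and at 14 days, and darker on naïve replicates 3 to 6. At 7 days Krt25 (12.19 to 13.69) and Krt71 (12.21 to 13.61) are bright on every array. Krt33b, Krt86, Krtap1-1 and Krtap1-5 are mixed there. Krt36 follows at a lower level, Krtap13-2l1 and Krtap14l are dim on every array, and Krt5 and Krt14 are bright on every array.

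To show what the follicle genes that moved together share in sequence, the 250 bases before the start site are printed for both inner root sheath genes, 1 hair keratin and 1 keratin-associated protein gene, read from RefSeq (GRCr8) on the minus strand, 5′ to 3′. Capitals mark TATAAA, the TATA box letters, and CTTTGA, the core letters read by Lef1 and its relatives in Wnt signaling, each searched on both strands. The windows are chr10:84771198-84771447 for Krt25, chr7:134761034-134761283 for Krt71, chr10:85462077-85462326 for Krt33b and chr10:85039857-85040106 for Krtap1-5.
Krt25: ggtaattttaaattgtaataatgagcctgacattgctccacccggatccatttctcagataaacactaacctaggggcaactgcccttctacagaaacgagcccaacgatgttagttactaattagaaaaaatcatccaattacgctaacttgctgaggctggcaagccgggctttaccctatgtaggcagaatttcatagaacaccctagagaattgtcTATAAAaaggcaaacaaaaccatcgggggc
Krt71: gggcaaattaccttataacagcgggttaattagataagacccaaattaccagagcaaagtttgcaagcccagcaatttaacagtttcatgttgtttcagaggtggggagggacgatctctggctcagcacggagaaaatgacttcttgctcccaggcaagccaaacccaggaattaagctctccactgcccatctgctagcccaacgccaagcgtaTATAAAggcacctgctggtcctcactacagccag
Krt33b: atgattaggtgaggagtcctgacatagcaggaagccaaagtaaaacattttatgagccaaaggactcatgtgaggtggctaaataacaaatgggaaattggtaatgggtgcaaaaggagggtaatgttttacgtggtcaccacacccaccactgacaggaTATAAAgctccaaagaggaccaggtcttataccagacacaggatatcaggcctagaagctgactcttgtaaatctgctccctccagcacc
Krtap1-5: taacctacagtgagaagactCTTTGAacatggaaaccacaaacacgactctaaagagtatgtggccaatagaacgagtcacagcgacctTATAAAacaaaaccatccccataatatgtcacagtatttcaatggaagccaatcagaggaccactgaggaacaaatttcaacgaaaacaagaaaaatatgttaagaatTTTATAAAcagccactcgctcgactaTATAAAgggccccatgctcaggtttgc

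In Krt25 the TATAAA letters began 30 bases before the start site and in Krt71 34 bases before it. In Krt33b they began 90 bases before it. In Krtap1-5 they were found at 161, 51 and 27 bases before the start, and at 53 bases on the other strand, where the match overlaps the one at 51 and the capitals run together, and CTTTGA lay at 230 bases. RefSeq had a window for 18 of the 26 genes. A gene was counted if any of its windows held the letters, while the share over all 33469 windows counts each window. TATAAA was in 6 of 8 inner root sheath and hair shaft genes (75%). It was in 3 of 10 genes of the other classes (30%), among them 2 of 4 suprabasal genes, and in 12.9% of all windows. CTTTGA was in 3 of 8 (37.5%), 1 of 10 (10%) and 13.9%, and in 0 of the 2 inner root sheath genes. These are matches of letters and say nothing of binding.

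The inner root sheath keratins lay far apart on the naïve arrays, and all 5 arrays at 7 days held them above naïve replicates 3 to 6. Krt25, a type I keratin of the inner root sheath, was at 13.73, 13.81, 6.92, 6.68, 6.21 and 6.16 on naïve replicates 1 to 6. It was at 13.69, 12.19, 13.45, 12.47 and 13.16 on the 7-day arrays and at 13.68, 13.67, 13.74, 13.64 and 13.58 on the 14-day arrays. No denervated array lay above naïve replicate 2. Krt71, a type II keratin of the same layer, was at 13.69, 13.81, 8.35, 8.09, 8.18 and 7.87 on naïve replicates 1 to 6. It was at 13.61, 12.21, 13.45, 12.40 and 12.99 at 7 days and 13.80, 13.75, 13.75, 13.64 and 13.67 at 14 days. The 14-day arrays lay above every 7-day array, close to the top of the scale, and naïve replicate 2 alone exceeded them all. Neither gene passed at 7 days (adjusted p = 0.0613 for Krt25 and 0.0779 for Krt71, exact permutation p = 0.0606 for each), and both were higher at 14 days (adjusted p = 0.0229 and 0.0221, exact permutation p = 0.0584 and 0.0476).

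The hair keratins showed the same division, with more spread at 7 days. Krt33b, a type I keratin of the hair cortex, was at 13.51, 13.78, 7.00, 6.99, 7.74 and 6.76 in naïve skin, 13.20, 11.34, 10.74, 8.74 and 12.70 at 7 days and 13.54, 13.77, 13.78, 13.74 and 13.60 at 14 days. Krt86, a type II hair keratin, was at 13.41, 13.76, 7.85, 7.79, 7.93 and 7.50 in naïve skin, 13.10, 11.81, 10.88, 9.32 and 12.30 at 7 days and 13.32, 13.67, 13.63, 13.69 and 13.31 at 14 days. In both, 7-day replicate 4 was the lowest denervated array and every 14-day array exceeded every 7-day array. Against naïve skin both were higher at 14 days (adjusted p = 0.0280 and 0.0290, exact permutation p = 0.0303 and 0.0476) and did not pass at 7 days (adjusted p = 0.299 and 0.306). The 14-day calls were lost in 13 and 14 of 30 alternatives, among them the removal of naïve replicate 3, 4, 5 or 6 or of any 1 of the 14-day arrays (0.0515 and 0.0526 without 14-day replicate 1).

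Krt36, a type I hair keratin also made in the papillae of the tongue, was at 8.47, 8.37, 6.55, 5.91, 6.27 and 5.93 in naïve skin, 7.77, 7.46, 6.21, 6.30 and 8.15 at 7 days and 8.53, 9.13, 8.85, 8.54 and 8.99 at 14 days. It lay away from the top of the scale and was chosen for single-array values after they were seen. Its 14-day arrays exceeded all naïve and all 7-day arrays. Its group means were 6.92 ± 1.19 (SD, n = 6), 7.18 ± 0.88 (SD, n = 5) and 8.81 ± 0.27 (SD, n = 5). The log2 difference was 0.26 at 7 days (SE 0.502, adjusted p = 0.748) and 1.89 at 14 days (SE 0.502, adjusted p = 0.0190, exact permutation p = 0.0152).

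Krtap1-1 and Krtap1-5 encode high-sulfur proteins that surround the keratin filaments of the shaft. Their probesets carry the same accession in the array annotation, so the separation of these 2 genes is uncertain. Krtap1-1 was at 11.72, 13.03, 6.06, 6.25, 6.13 and 6.00 in naïve skin, 11.88, 10.45, 9.32, 7.38 and 9.85 at 7 days and 12.86, 12.47, 12.69, 12.60 and 12.65 at 14 days. Krtap1-5 was at 13.17, 13.61, 5.51, 5.43, 5.83 and 5.36 in naïve skin, 12.67, 10.75, 8.49, 8.15 and 10.93 at 7 days and 13.47, 13.60, 13.72, 13.58 and 13.52 at 14 days. In both, naïve replicates 1 and 2 lay among or near the 14-day arrays, and all 7-day arrays lay below the 14-day arrays and above naïve replicates 3 to 6. At 14 days Krtap1-1 was higher by 4.45 on the log2 scale (SE 1.24, adjusted p = 0.0230, exact permutation p = 0.0281), and Krtap1-5 was higher too (adjusted p = 0.0234, exact permutation p = 0.0260). At 7 days the difference of Krtap1-1 was 1.58 (SE 1.24, 95% confidence interval -1.07 to 4.22, adjusted p = 0.409).

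Krtap14l and Krtap13-2l1, keratin-associated protein genes of chromosome 11, spanned a narrow range on all arrays. Krtap14l was at 5.36, 5.50, 5.13, 5.04, 4.85 and 5.04 in naïve skin, 5.25, 5.22, 4.94, 5.17 and 5.23 at 7 days and 5.88, 5.79, 5.51, 5.26 and 5.65 at 14 days, and was higher at 14 days by 0.46 (SE 0.123, adjusted p = 0.0190, exact permutation p = 0.0152). Krtap13-2l1 was at 3.76, 4.01, 3.82, 3.92, 4.05 and 3.86, 3.79, 3.84, 3.81, 3.87 and 3.95 and 4.09, 3.99, 4.29, 4.19 and 4.48. It was also called higher at 14 days (adjusted p = 0.0174, exact permutation p = 0.0108), although its 14-day arrays overlapped the naïve ones and lay among the dimmest genes.

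**Figure D2:**
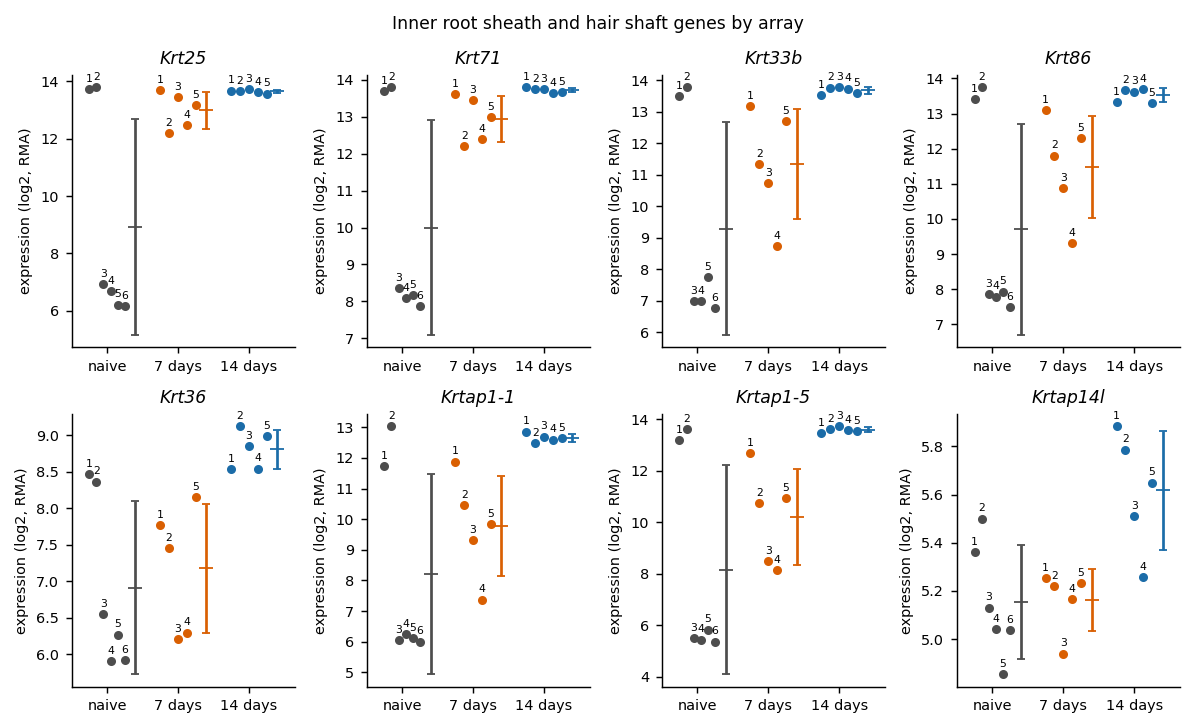
Log2 expression (RMA) of 2 inner root sheath and 6 hair shaft genes on each array, with the replicate number over each point and the mean ± SD of the group beside it. Naïve replicates 1 and 2 stand far above naïve replicates 3 to 6 in the genes other than Krtap14l. The 7-day arrays are scattered most in Krt33b, Krt86, Krtap1-1 and Krtap1-5, and the 14-day arrays lie close together (Krtap1-5 at 13.47 to 13.72).

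At 7 days the order of the arrays differed between the 2 follicle compartments. On 7-day replicate 3, Krt25 and Krt71 were both at 13.45, above replicates 2, 4 and 5, while Krtap1-5 was at 8.49 and Krt36 at 6.21, below replicates 1, 2 and 5. This order is a description and was not tested.

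**Figure D3:**
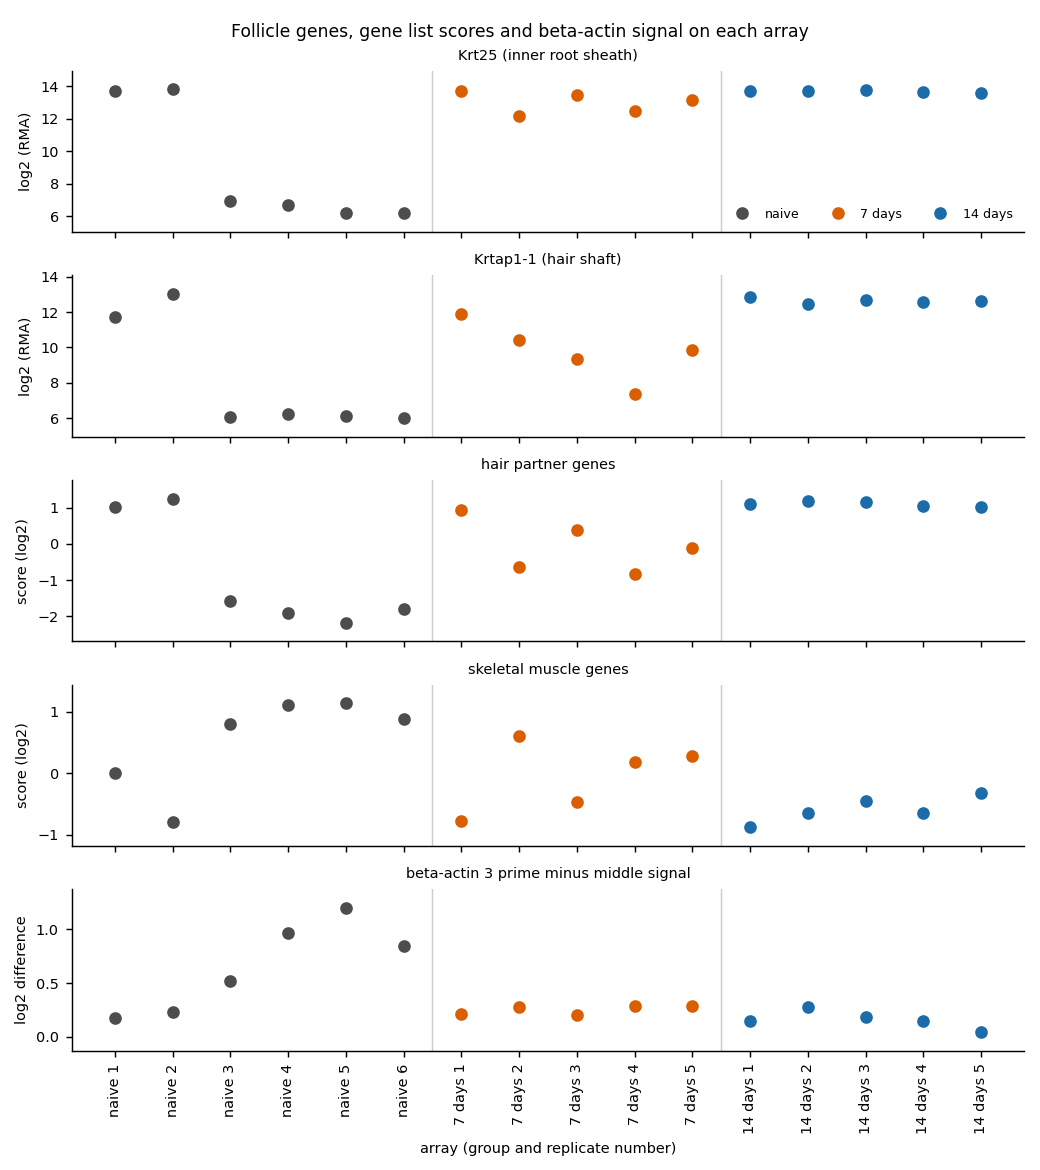
Log2 expression (RMA) of Krt25 and Krtap1-1, scores of hair partner genes and skeletal muscle genes (mean over genes of the log2 value minus its mean over all arrays), and the log2 difference of beta-actin 3′ and middle signals on the 16 arrays. Naïve replicates 3 to 6 have low Krt25 and Krtap1-1 with muscle scores of 0.80 to 1.14 and actin differences of 0.519 to 1.20. Naïve replicates 1 and 2 have both genes high with muscle scores of -0.00151 and -0.79. The 14-day arrays have both genes high with muscle scores of -0.88 to -0.33. The 7-day arrays have Krt25 at 12.19 to 13.69 and Krtap1-1 at 7.38 to 11.88, with muscle scores on either side of zero (-0.77 to 0.61). The 3′ minus 5′ signals of beta-actin and Gapdh are not drawn and did not divide the naïve arrays in this way.

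The basal keratins, which mark the epidermis, were high on every array as labelled skin should have them, and of the 3 only Krt15 was called. Krt5 was at 13.15, 13.17, 12.99, 13.12, 13.10 and 13.03 in naïve skin, 13.02, 12.92, 12.98, 12.47 and 13.03 at 7 days and 13.01, 12.99, 12.94, 13.01 and 12.74 at 14 days. Krt14, its type I partner, was at 13.23, 13.22, 13.06, 13.16, 12.97 and 13.10 in naïve skin, 13.24, 13.02, 13.23, 12.62 and 13.22 at 7 days and 13.15, 12.97, 13.10, 13.13 and 12.86 at 14 days. Apart from 7-day replicate 4, the lowest array in both genes, all arrays of Krt5 lay between 12.74 and 13.17. The log2 difference of Krt5 was -0.21 at 7 days (SE 0.0910, adjusted p = 0.138, exact permutation p = 0.0152) and -0.16 at 14 days (SE 0.0910, adjusted p = 0.212, exact permutation p = 0.0130), neither past the threshold. Krt14 differed by -0.06 (adjusted p = 0.720) and -0.08 (adjusted p = 0.583).

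Krt15, a type I keratin of basal cells and of the stem cells in the follicle bulge, was at 12.73, 12.63, 13.27, 13.45, 13.41 and 13.32 in naïve skin. It was at 12.52, 12.92, 12.71, 12.20 and 12.33 at 7 days and 12.13, 12.16, 12.11, 12.23 and 11.77 at 14 days. Every 14-day array lay below every naïve array, including naïve replicates 1 and 2, and the 7-day arrays overlapped both groups. The means were 13.14 ± 0.36 (SD, n = 6), 12.54 ± 0.29 (SD, n = 5) and 12.08 ± 0.18 (SD, n = 5). Krt15 fell by 0.60 at 7 days (SE 0.166, adjusted p = 0.0334, exact permutation p = 0.0238) and by 1.06 at 14 days (SE 0.166, adjusted p = 0.00174, exact permutation p = 0.00433). Within naïve skin Krt15 ran opposite to the follicle genes, with its lowest values on replicates 1 and 2. The 14-day call was kept in 29 of 30 alternatives and was lost with the skeletal muscle score as a covariate (-0.73, adjusted p = 0.0555), while the 7-day call was lost without any 1 of 8 arrays.

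The suprabasal keratins gave no call at either time. Krt1 was at 11.52, 11.30, 12.44, 12.22, 11.44 and 12.11 in naïve skin, 12.69, 11.50, 12.87, 11.29 and 9.34 at 7 days and 12.27, 12.26, 12.24, 12.25 and 12.07 at 14 days. Krt10, the partner of Krt1, was at 12.84, 12.79, 13.44, 13.05, 12.50 and 13.25 in naïve skin, 13.36, 13.04, 13.43, 12.63 and 10.19 at 7 days and 12.82, 12.62, 12.88, 12.84 and 12.56 at 14 days. On 7-day replicate 5 both genes were lower than on any other array of the series, and Krt78 and Krt79 were lowest there too (6.96 and 9.69). The 7-day difference of Krt1 was -0.30 (SE 0.470, adjusted p = 0.689) and 0.25 without 7-day replicate 5, and that of Krt10 was -0.45 (SE 0.438, adjusted p = 0.511) and 0.14 without it, so the sign of both rests on that array. At 14 days they differed by 0.38 (adjusted p = 0.576) and -0.23 (adjusted p = 0.722).

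Krt79, made by cells that line the hair canal, was at 10.91, 10.84, 11.30, 10.62, 10.55 and 11.23 in naïve skin, 11.24, 11.01, 11.49, 10.82 and 9.69 at 7 days and 10.69, 10.56, 10.45, 10.75 and 10.30 at 14 days. Its difference was -0.06 at 7 days (adjusted p = 0.892) and -0.36 at 14 days (adjusted p = 0.300). Krt24 was at 6.73, 6.71, 7.36, 7.21, 7.51 and 7.02 in naïve skin, 6.74, 7.05, 6.69, 6.65 and 6.68 at 7 days and 6.87, 6.79, 6.84, 6.93 and 6.35 at 14 days, with its highest values on naïve replicates 3 to 5. It differed by -0.33 at both times (SE 0.148, adjusted p = 0.157 and 0.109). Krt78 ranged from 7.64 to 9.31 in naïve skin, 6.96 to 9.06 at 7 days and 8.16 to 8.39 at 14 days.

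The stress keratins followed the division of the naïve arrays. Krt17 was at 13.28, 13.14, 12.35, 11.48, 11.44 and 12.05 in naïve skin, 12.93, 12.52, 12.87, 11.99 and 12.94 at 7 days and 13.13, 13.06, 13.06, 13.07 and 12.83 at 14 days. Krt6c was at 11.67, 11.80, 10.85, 9.94, 10.14 and 10.08 in naïve skin, 11.47, 11.51, 11.35, 10.78 and 10.99 at 7 days and 11.44, 11.13, 11.34, 11.48 and 11.14 at 14 days. In both genes naïve replicates 1 and 2 lay above all denervated arrays, and naïve replicates 4 and 5 lay below them all. Neither passed the threshold at 7 days (0.36, SE 0.306, adjusted p = 0.446, and 0.47, SE 0.310, adjusted p = 0.316) or at 14 days (0.74, adjusted p = 0.0887, and 0.56, adjusted p = 0.190). Without naïve replicates 1 and 2 both were called higher at both times. Those were the highest arrays of all in both genes, so leaving them out raises the differences in itself. These calls therefore do not bear out a change. Krt6c is the median of 3 probesets, of which 1 stayed between 4.39 and 4.91 on every array.

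**Figure D4:**
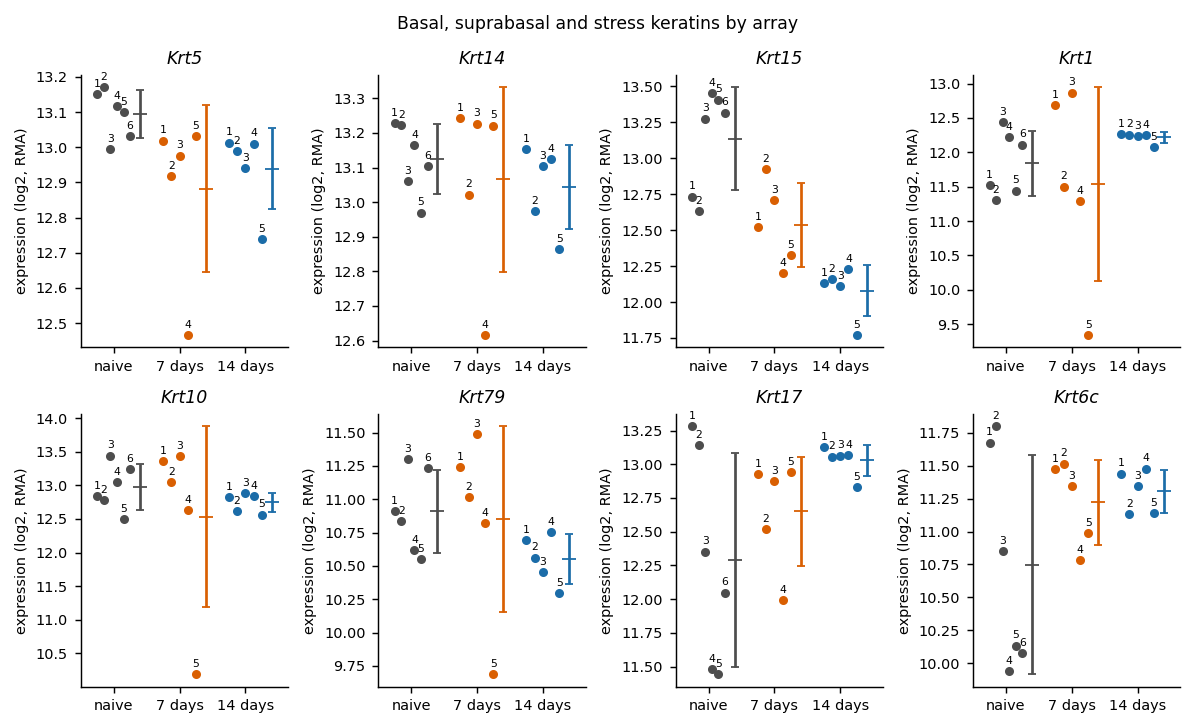
Log2 expression (RMA) of basal, suprabasal and stress keratins on each array, with the replicate number over each point and the mean ± SD of the group beside it. The 14-day arrays of Krt15 (11.77 to 12.23) lie below all naïve arrays, 7-day replicate 5 stands apart in Krt1, Krt10 and Krt79, and Krt17 and Krt6c are highest on naïve replicates 1 and 2.

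Among the remaining keratins, Krt12 and Krt7 were called against naïve skin. Krt12, best known from the cornea, was at 4.37, 4.29, 4.22, 4.32, 4.29 and 4.30 in naïve skin, 4.42, 4.68, 4.34, 4.50 and 4.38 at 7 days and 4.84, 4.44, 4.41, 4.68 and 4.58 at 14 days. Its 14-day arrays did not overlap naïve skin (adjusted p = 0.0190, exact permutation p = 0.00216), but all its values lay near the dimmest 10% of genes. Krt7, a keratin of simple and glandular epithelia, was at 5.28, 5.35, 5.44, 5.61, 5.63 and 5.75 in naïve skin, 5.15, 5.25, 5.34, 5.15 and 5.12 at 7 days and 5.27, 5.29, 5.33, 5.46 and 5.30 at 14 days. It fell by 0.31 at 7 days (SE 0.0797, adjusted p = 0.0253, exact permutation p = 0.0108), and at 14 days its difference was -0.18 (adjusted p = 0.109). The 7-day call was lost in 8 of 29 alternatives, among them the removal of naïve replicate 4 (adjusted p = 0.0607), naïve replicate 5 (0.0581) or 7-day replicate 4 (0.0697) and the model of the compared groups alone (0.0915).

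Krt23, also chosen after its values were seen, was at 8.31, 8.62, 7.91, 6.60, 5.59 and 7.15 in naïve skin, 8.21, 7.57, 8.26, 6.83 and 6.08 at 7 days and 8.50, 8.44, 8.75, 8.39 and 8.59 at 14 days. It was lowest on naïve replicate 5 and 7-day replicate 5, and its 14-day difference of 1.17 (SE 0.495) did not pass (adjusted p = 0.0938). Krt13 and Krt4, a pair of mucosal keratins, ranged over all arrays from 5.26 to 5.66 and from 4.96 to 5.68. Krt19 ranged from 4.91 to 6.00 and Krt90 from 6.27 to 7.04. None of these 5 was called against naïve skin, and at 14 days the difference of Krt4 was 0.28 (adjusted p = 0.0613).

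In all, 0 of the 26 genes were higher and 2 lower at 7 days, Krt15 and Krt7, against a background of 7.85% of all genes higher and 2.66% lower. With each array's median subtracted the counts were 1 higher and 4 lower, where 17.2% of all genes were called. In no gene did the 7-day arrays lie apart from the naïve ones, where 4.66% of all genes did so (3.31% above and 1.35% below). At 14 days 10 genes were higher, namely both inner root sheath genes, all 7 hair shaft genes and Krt12, against 8.95% of all genes, and 1 was lower, Krt15, against 14.6%. The 11 calls are 42.3% of the 26 genes, where 23.5% of all genes were called in either direction. Most of the follicle genes moved together on the same arrays, so the 26 genes are not independent and these shares are no test. Only Krt36 and Krt12 had every 14-day array above every naïve array (3.69% of all genes), and only Krt15 every one below (6.66%). The median log2 difference of the 26 genes was 0.02 at 7 days and 0.30 at 14 days, beside -0.02 and 0.02 over all genes. Both comparisons use the same naïve arrays.

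These counts depended on which naïve arrays were in the model. Without naïve replicates 1 and 2, 9 genes were higher and 3 lower at 7 days, where 35.5% of all genes were called. At 14 days 14 were then higher and 3 lower, where 43% were called. Replicates 1 and 2 were set apart by the values of these same genes, so counts without them do not bear out a change. Without naïve replicates 4 and 5, no gene was called at 7 days, and Krtap13-2l1 was the 1 higher and Krt15 the 1 lower at 14 days, where 6.75% of all genes were called. At 7 days, 2 genes were higher without naïve replicate 1 or without naïve replicate 2, where 16.2% and 18.8% of all genes were called. None was lower without naïve replicate 4, naïve replicate 5 or 7-day replicate 4, where 5.65%, 6.11% and 4.42% were called. The 7-day count of lower genes was 1 without naïve replicate 3 or 6 or 7-day replicate 1, 3 or 5, where 5.52% to 11.6% were called. At 14 days, 3 were lower without naïve replicate 1 and 2 without naïve replicate 2, where 32% and 34% were called. Without naïve replicate 4 alone, or without naïve replicate 6 alone, 4 genes were higher at 14 days, where 11.7% and 12.7% were called. With the skeletal muscle score as a covariate no gene was called against naïve skin at either time, where 10.2% of all genes were called at 7 days and 1.98% at 14 days. The 14-day calls of the other genes were lost in 7 (Krt25), 6 (Krt71), 5 (Krtap1-1 and Krtap1-5) and 3 (Krt36) of 30 alternatives and in 4 (Krt12), 3 (Krtap14l) and 2 (Krtap13-2l1) of 29.

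The 14-day and 7-day arrays were compared to ask whether the family differed between the times, a comparison in which the naïve arrays enter only through the shared spread. Every 14-day array exceeded every 7-day array in 10 genes, where 9.07% of all genes did so in that direction. These were all 7 hair shaft genes, Krt71, Krt13 and Krt23. Full separation of 5 against 5 arrays always gives an exact permutation p of 0.00794, so that p adds nothing to the count. None of the 26 lay entirely below, against 11.6% of all genes. By limma 4 genes were higher and 0 lower, against 8.86% and 10.1% of all genes. They were Krt36 (1.63, SE 0.525, adjusted p = 0.0425), Krtap14l (0.46, SE 0.129, adjusted p = 0.0264), Krt13 (0.19, SE 0.0551, adjusted p = 0.0303) and Krtap13-2l1 (adjusted p = 0.0123).

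The shared spread includes that of the divided naïve arrays. In a model of the 7-day and 14-day arrays alone, 11 genes were higher, where 31% of all genes were called. They were the 7 hair shaft genes, Krt71, Krt13, Krt23 and Krt90, and 1 was lower, Krt15 (-0.46, adjusted p = 0.0302). In that model Krtap1-1 was higher by 2.88 (adjusted p = 0.0107), a fold of 7.35, and Krt23 by 1.14 (adjusted p = 0.0380), a fold of 2.21. In the model of all 16 arrays the adjusted p of Krtap1-1 was 0.123, that of Krt23 0.124 and that of Krt15 0.0749. The 4 calls of the full model fell to 1 without 7-day replicate 3 or 14-day replicate 5, where 9.92% and 9.82% of all genes were called, and to 2 without 7-day replicate 2 or 4 or 14-day replicate 1, 2 or 3, where 10.8% to 14.5% were called.

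**Figure D5:**
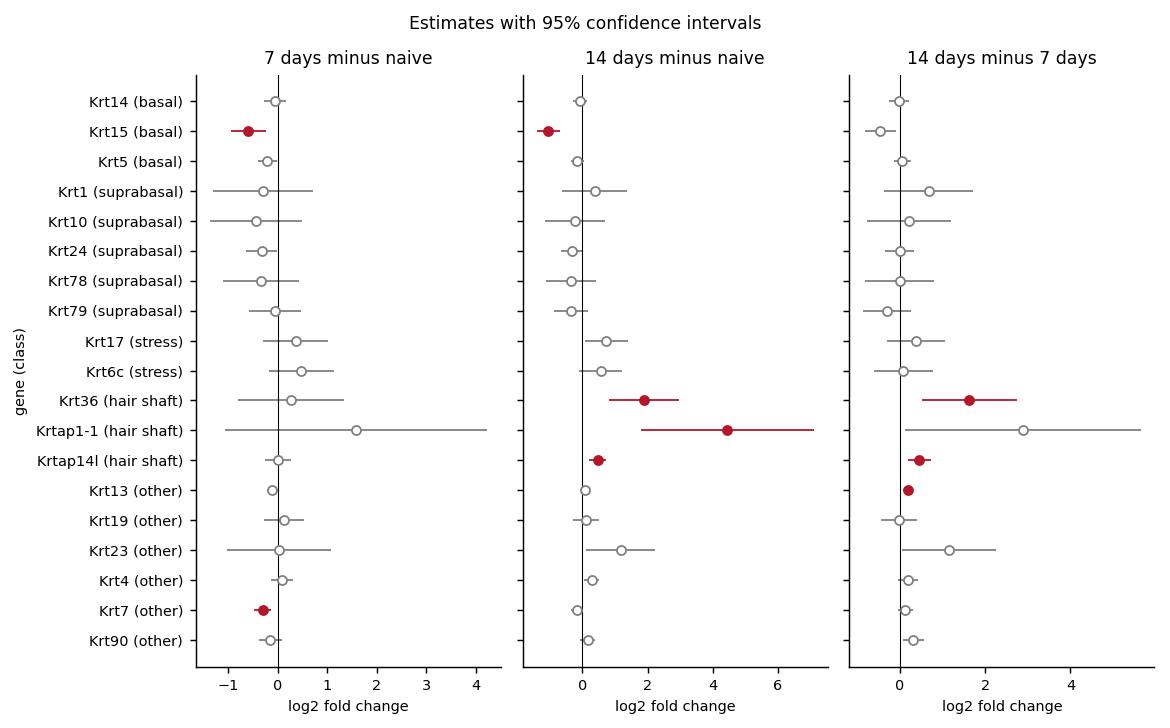
Log2 differences with 95% confidence intervals from limma for the 19 genes away from both ends of the scale, for 7 days minus naïve, 14 days minus naïve and 14 days minus 7 days, with filled red points where the adjusted p was under 0.05. Krt15 lies below 0 against naïve skin at both times, and Krt36, Krtap1-1 and Krtap14l lie above it at 14 days, with the widest interval in Krtap1-1.

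Genes that work with keratins in the follicle and the cornified layer were counted from lists, beside the same 14217 genes. Of 19 measured hair partner genes, 0 were called at 7 days, where 10.5% of all genes were called. At 14 days 10 were higher, where 8.95% of all genes were, with a median log2 difference of 1.65 against 0.02 over all genes. Tchh, which encodes trichohyalin of the inner root sheath, was at 12.71 and 13.00 on naïve replicates 1 and 2, as low as 3.92 on the other naïve arrays, 11.14 to 12.65 at 7 days and 12.56 to 12.72 at 14 days (adjusted p = 0.0241 at 14 days). Mt4, a metallothionein of stratified epithelia, was at 13.08 and 13.31 on naïve replicates 1 and 2, as low as 5.21 on the others, and 13.02 to 13.37 at 14 days (adjusted p = 0.0239). Padi1, an enzyme that converts arginine to citrulline in such proteins, was higher by 2.49 (SE 0.720, adjusted p = 0.0260), and S100a3, a calcium-binding protein of the hair cuticle, was higher too (adjusted p = 0.0233). Between the times 3 of the 19 were higher, where 8.86% of all genes were. They were Dsc2, Tgm3 and Pkp3, which were chosen after their values were seen (2.93, 0.70 and 0.87, adjusted p = 0.0388, 0.0392 and 0.0487).

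Of 21 measured regulators of hair growth, 1 passed upward and 4 downward at 7 days, and 2 upward and 5 downward at 14 days, with median log2 differences of -0.00134 and 0.22. Of all genes, 7.85% and 2.66% passed upward and downward at 7 days, and 8.95% and 14.6% at 14 days. The upward count at 14 days was near that share. At 7 days 16 of the regulators passed in neither direction, and at 14 days 14 did so, so the genes named here do not describe the list. Bmp2, a signal that holds follicles in rest and also acts in the growing bulb, was at 7.68 to 8.89 in naïve skin, 6.22 to 7.18 at 7 days and 7.30 to 7.54 at 14 days, with no overlap of either group with naïve skin. It fell by 1.35 at 7 days (SE 0.191, adjusted p = 0.00159) and by 0.68 at 14 days (adjusted p = 0.0229). Fgf18, a signal of resting follicles, fell by 1.60 at 7 days (adjusted p = 0.00930) and 1.48 at 14 days (adjusted p = 0.00908), and was at 5.35 and 4.92 on naïve replicates 1 and 2 and as high as 7.25 on the others. Nfatc1, a factor of bulge stem cells, fell by 1.50 at 14 days (SE 0.350, adjusted p = 0.0109). The 2 that were higher at 14 days, named after their values were seen, were Dlx3 (2.14, adjusted p = 0.0394) and Msx2 (2.03, adjusted p = 0.0434), transcription factors of the growing follicle. Both were high on naïve replicates 1 and 2 (11.14 and 11.16 for Dlx3, 8.50 and 8.58 for Msx2) and as low as 7.02 and 5.10 on the other naïve arrays. Of 10 measured epidermal differentiation genes, only Sprr1b was called, higher by 3.75 at 14 days (SE 1.20, adjusted p = 0.0357), where 8.95% of all genes were higher. It followed the division, at 10.89 and 10.27 on naïve replicates 1 and 2, as low as 5.24 on the other naïve arrays and 10.64 to 11.35 at 14 days. Of 8 sebaceous gland genes none was called at either time.

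Markers of other cells moved as well. Of 19 skeletal muscle genes, 0 were called at 7 days and 15 were lower at 14 days, with a median log2 difference of -1.09. Of 17 macrophage genes, 14 were higher at 7 days and 2 at 14 days (medians 1.34 and 0.55). Of 16 genes of cycling cells, 5 were higher at 7 days and 3 at 14 days (medians 0.71 and 0.52). Of all genes, 7.85% were higher and 2.66% lower at 7 days, and 8.95% were higher and 14.6% lower at 14 days. The macrophage count at 14 days was near that share. The part of these cells in the keratin values was not tested.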

How the data were processed

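Expression was measured on Affymetrix Rat Genome 230 2.0 arrays, 1 per rat. The authors deposited log2 values of 31099 probesets made by robust multi-array averaging, which puts all arrays on 1 distribution of intensities, so a change in a few very abundant transcripts can shift others. R 3.0.1 is named in the submitters' processing notes, with no version for RMA, and no label marks a batch. Following the study's methods, 57 control probesets, 9780 without a gene and 436 with more than 1 gene were dropped, and a gene's value is the median of its probesets. Probesets were named from the platform annotation, with current RefSeq symbols matched on Entrez identifiers for 14167 of 14217 genes. Of the 26 genes, 25 had 1 probeset, and 3 probesets that list several genes of the family were left out.

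Groups came from the sample labels. Limma 3.58.1 in R 4.3.3 was fitted once to all 16 arrays with a mean per group, with Benjamini-Hochberg adjustment over all genes. It was tested on simulated data with independent noise and the same spread in every group. That test does not bear on genes that divide the naïve arrays. Exact two-sided permutation tests used 462 regroupings for each comparison with naïve skin and 252 for that of both times. Values of single arrays are given for set marker keratins, for the genes of each class with the largest statistic in each comparison, and for further genes named in the text. The members, classes, lists and alternatives were chosen with earlier results of these data known. Alternatives changed the probeset summary, the treatment of dim genes, scaling, moderation, array weights and threshold, added a replicate block or a muscle covariate, or left arrays out.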

Additional observations from a re-analysis of the deposited data

Results flagged for a closer look

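Of 78 groups of arrays checked, 10 held a value far from the others. Chance gives about 1 in 20 for a single check, but the genes share the same arrays. The checks are therefore not independent, and the count is no test of an excess. On 14-day replicate 5 the lowest values were those of Krt15 (11.77), Krt5 (12.74), Krt1 (12.07), Krt17 (12.83) and Krt24 (6.35), each below the other 14-day arrays. On 7-day replicate 5 Krt10 was lowest at 10.19, on 7-day replicate 4 Krt5 at 12.47, and on 7-day replicate 3 Krtap14l at 4.94. Krt24 was highest at 7.05 on 7-day replicate 2, and Krt90 at 7.04 on naïve replicate 5.

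In 4 genes the change from naïve skin differed between the times by limma, with adjusted p = 0.0425 for Krt36, 0.0123 for Krtap13-2l1, 0.0264 for Krtap14l and 0.0303 for Krt13.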

How the results depend on the processing

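Of 78 gene results, 32 kept their side of the threshold under every alternative, 46 changed it under 1 or more and 0 turned sign with a call. Counts of the 26 genes were as reported with the probeset of highest mean, the mean over probesets, the symbols of the array annotation, and trended robust moderation. The share of all genes called, given in brackets, moved with the setting as well. At 7 days the counts of 0 higher and 2 lower (10.5%) became 0 and 1 without the dimmest 25% of genes, which leaves 19 of the 26 (13.2%), 1 and 4 with array medians subtracted (17.2%), 7 and 2 with array weights (27%) and 9 and 3 without naïve replicates 1 and 2 (35.5%). They became 0 and 0 with the compared groups alone (2.07%), the muscle covariate (10.2%), an adjusted p under 0.01 (2.64%) or without naïve replicates 4 and 5 (2.75%). At 14 days the counts of 10 and 1 (23.5%) became 7 and 1 without the dimmest 25% (28%), 11 and 2 with quantile normalization (24.1%), 14 and 4 with array weights (49.1%), 14 and 3 without naïve replicates 1 and 2 (43%), 8 and 1 with the compared groups alone (18.5%), 1 and 1 without naïve replicates 4 and 5 (6.75%), 0 and 0 with the muscle covariate (1.98%), and 0 and 1 at an adjusted p under 0.01 (5.54%). Between the times 4 and 0 (18.9%) became 1 and 0 without the dimmest 25% (16.6%), 5 and 0 with array medians subtracted (21.7%), 2 and 0 with quantile normalization (11.5%), 10 and 1 with array weights (34.1%) or without naïve replicates 1 and 2 (30%), 11 and 1 with the compared groups alone (31%), 3 and 0 with the muscle covariate (19.8%), 6 and 0 without naïve replicates 4 and 5 (23.5%), and 0 and 0 at an adjusted p under 0.01 (3.89%). With 1 array left out in turn, the higher genes numbered 0 to 2 at 7 days, 4 to 14 at 14 days and 1 to 5 between the times. The lower genes numbered 0 to 2, 1 to 3 and 0 to 1. The cause of these shifts was not tested. With the replicate number as a block the counts were 0 and 0 (6.07%), 5 and 1 (8.9%), and 5 and 0 (16.3%), but the numbers do not pair the arrays. Deviations of arrays with the same number correlated at a median of 0.104 (-0.552 to 0.583, 15 pairs), those with other numbers at 0.00729, and 5 of 16 arrays correlated best with their own number. The number of arrays and the signal at both ends of the scale limit the precision.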
